A study of Mus musculus with 6 samples.

Results

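Trabeculation and compaction shape the wall of the embryonic ventricle, and 10 genes that carry their signals were followed in hearts lacking the mitochondrial ribosomal protein gene Mrps5 and in control hearts. The genes are the ligands Nrg1 and Bmp10, the receptors Erbb2, Erbb4 and Notch1, the transcription factors Hey1 and Hey2, and the matrix genes Has2, Vcan and Adamts1. They were taken by symbol, and all 10 of the 10 names were found among the 26199 genes of the table, in 32 of its 60776 transcript rows. Control hearts (Ctrl) were Mrps5 fl/fl without Cre, and mutant hearts (cKO) were Mrps5 fl/fl with cTNT-Cre, so that both groups carried the floxed alleles and were collected at embryonic day 12. The mutant genotype is that of the sample titles and of the study's main text. A supplementary figure legend of the study writes the embryonic mutants as Mrps5 fl/+ with Cre. The Cre is driven by the cardiac troponin T promoter and acts in cardiomyocytes, which leaves Mrps5 intact in endocardium, epicardium and blood. Each group has 3 libraries, and each library is a pool of 5 hearts, with control and mutant embryos from the same crosses. The question put to these genes is whether signals for wall growth differ in hearts for which the study describes a thinner myocardial wall.

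In the early ventricle, endocardial cells line a single sheet of cardiomyocytes across a layer of hyaluronan-rich matrix, the cardiac jelly. NOTCH1 in the endocardium supports production of neuregulin 1, which crosses the jelly to the ERBB2 and ERBB4 receptors on cardiomyocytes, and BMP10 made by trabecular cardiomyocytes keeps them dividing. As trabeculae form, the protease ADAMTS1 breaks down versican and the jelly is lost, while HEY2 marks the outer cells that go on to make the compact wall.

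The label of each library was checked against Mrps5, whose summed FPKM (fragments scaled to transcript length and to the size of the library) was 9.65, 11.4 and 10.4 in Ctrl replicates 1, 2 and 3. It was 5.28 and 7.41 in cKO replicates 1 and 2, but 10.4 in the library labelled cKO replicate 3, within the control range. Values of the cKO group are therefore also given without that library where it decides a result. The deposited values do not hold read counts, and relative depths read from low values of single-transcript genes ran from 1.15 to 1.62, with Ctrl replicate 1 as 1. Erythroid marker genes made up 12.0% to 13.3% of summed FPKM in Ctrl libraries, but 23.5%, 10.8% and 22.0% in cKO replicates 1, 2 and 3. All 16 cardiomyocyte markers had log2 fold changes below 0, the one nearest to 0 being Myh6 at -0.03. Of these 10 had an unadjusted p under 0.05 from limma (15% of all genes) and 12 were without overlap (20.8% of all genes). They had a summed level of 13075 to 15670 FPKM in Ctrl and 10532 to 12581 FPKM in cKO libraries. In whole hearts fewer cells of a type and less RNA per cell cannot be told apart.

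All 10 genes reached 1 FPKM in 3 or more libraries and were tested. By log2 fold change 8 of them were lower and 2 higher in cKO hearts, with Has2 counted as lower at a value near 0 although its mean FPKM was 8.99 in Ctrl and 9.01 in cKO hearts. The log2 fold changes had a median of -0.19 beside -0.02 over the 13262 genes tested. Differences are on the scale of log2(FPKM + 1) throughout, cKO minus Ctrl. None had an adjusted p under 0.05 from limma with Benjamini-Hochberg adjustment over all genes tested, a threshold that 0.0829% of genes passed. At an unadjusted p under 0.05 there were 4, namely Bmp10 higher and Hey2, Nrg1 and Erbb4 lower, where 15% of all genes passed (5.58% higher and 9.43% lower). The same 4 genes had values that did not overlap between the groups, as did 20.8% of all genes tested, and 3 of them did so with FPKM rescaled without erythroid genes. The other 6 genes overlapped between the groups, and their intervals are given with each.

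**Figure D1:**
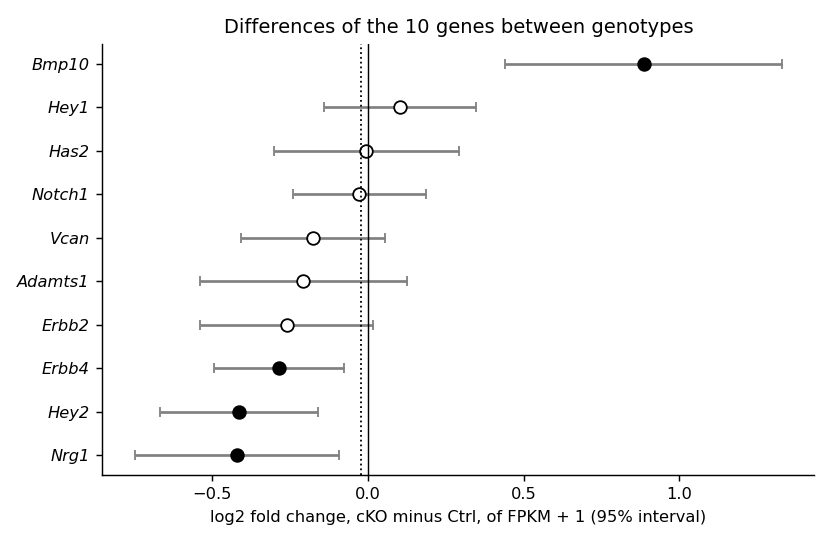
Log2 fold change of the 10 genes on the log2(FPKM + 1) scale, cKO minus Ctrl, with 95% confidence intervals from limma. Filled points are genes whose 3 Ctrl and 3 cKO values did not overlap, the dotted line is the median of all genes tested at -0.02, and Bmp10 at 0.89 lies farthest from it.

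Bmp10 (ENSMUSG00000030046), the ligand made by trabecular cardiomyocytes, was the gene of the 10 that differed most. Its FPKM was 19.9, 20.9 and 23.0 in Ctrl replicates 1, 2 and 3 and 40.6, 54.3 and 29.2 in cKO replicates 1, 2 and 3. Every cKO library was above every control, and the lowest of them was the library labelled cKO replicate 3. Means were 21.3 ± 1.59 (SD, n = 3) in Ctrl and 41.3 ± 12.6 FPKM (SD, n = 3) in cKO hearts, a ratio of 1.94. The log2 fold change was 0.89 (standard error 0.19, 95% interval 0.44 to 1.33), with an unadjusted p of 0.00170 and an adjusted p of 0.139 from limma. Among all genes tested 124 differed by more in either direction, and 158 had a smaller p. Leaving out the library labelled cKO replicate 3 gave 1.11 and an adjusted p of 0.00588 from limma, and Bmp10 then passed the adjusted threshold, as did 269 of all genes tested there against 11 with all libraries.

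Nrg1 (ENSMUSG00000062991), the endocardial ligand of the ERBB receptors, was the lowest of the 10 genes per kilobase in Ctrl hearts. Its summed FPKM was 7.53, 6.63 and 5.997 in Ctrl replicates 1, 2 and 3 and 4.46, 5.97 and 4.001 in cKO replicates 1, 2 and 3. The groups lay side by side without overlap, with Ctrl replicate 3 and cKO replicate 2 almost touching, and they overlapped once FPKM were rescaled without erythroid genes. The mean was 6.72 ± 0.769 (SD, n = 3) in Ctrl and 4.81 ± 1.03 FPKM (SD, n = 3) in cKO hearts. The log2 fold change was -0.42 (standard error 0.14, 95% interval -0.75 to -0.09), with an unadjusted p of 0.0183 and an adjusted p of 0.242 from limma. The unadjusted p missed 0.05 without Ctrl replicate 1 (0.0694), without cKO replicate 1 (0.0555) and without the library labelled cKO replicate 3 (0.0560). The sum rests on 12 transcript rows, of which 2 passed the filter alone. The most abundant row, ENSMUST00000207470, stood at 2.48, 1.65 and 1.66 FPKM in Ctrl and 2.03, 1.67 and 1.96 FPKM in cKO replicates 1, 2 and 3. These values overlap, and the log2 fold change of this row was -0.01 (adjusted p = 0.983 over transcript rows). The next row, ENSMUST00000208617, ranged from 0.595 to 1.80 FPKM in Ctrl and from 0.527 to 1.53 FPKM in cKO libraries and also overlapped (-0.21, adjusted p = 0.816). A row that was too low to be tested, ENSMUST00000208488, was at 2.51, 0.705 and 0.0967 FPKM in Ctrl and 0.828, 0.0315 and 0.0439 FPKM in cKO replicates 1, 2 and 3, so that the split of Nrg1 into rows varied among replicates. Erythroid level was added to the model as a covariate after the data had been seen, and the value for the gene was then -0.23 (unadjusted p = 0.137, adjusted p = 0.596 from limma), and the part of blood in the difference was not tested further.

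**Figure D2:**
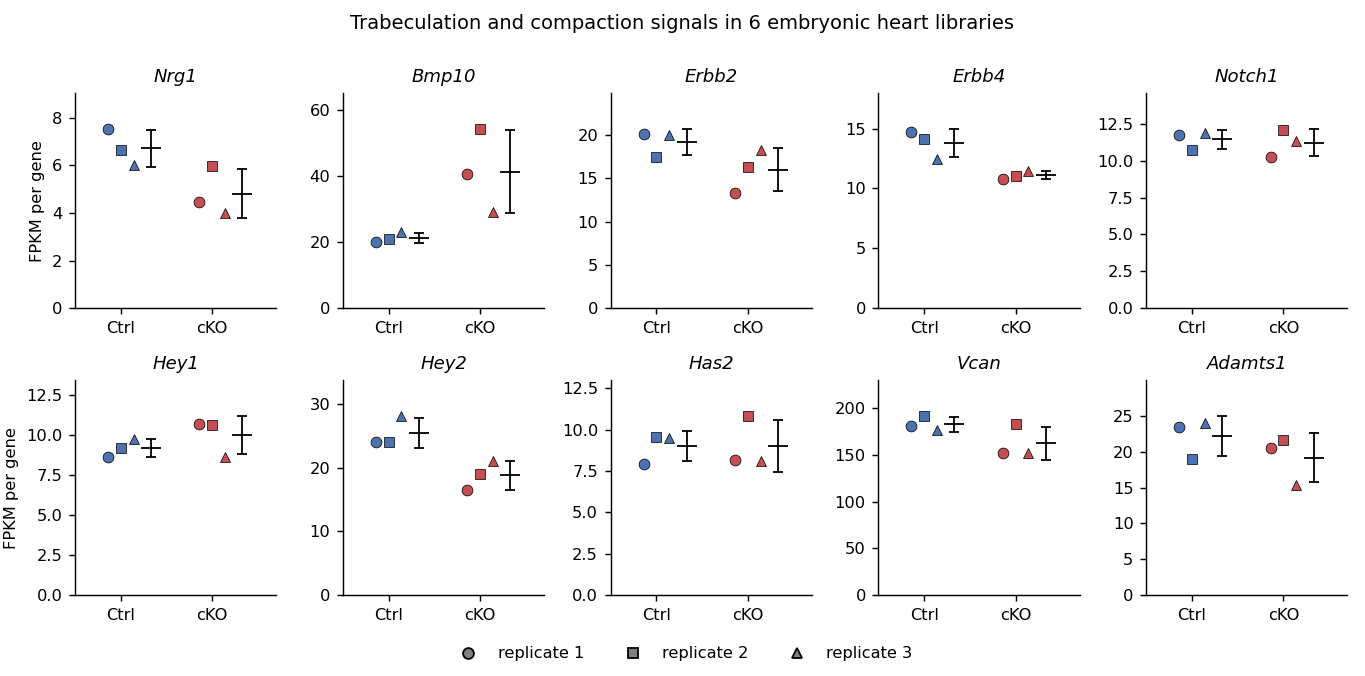
Summed FPKM of each gene (vertical axes from 0) in the 3 Ctrl and 3 cKO libraries, with symbols for the replicate number and bars for mean ± SD. Bmp10 is above the controls in every cKO library, Hey2, Erbb4 and Nrg1 are below them, and the other 6 genes overlap.

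Hey2 and Bmp10, the 2 genes with the smallest p of the 10, stand at the outer and the inner side of the wall, and the 250 bases before their start sites are shown because the genes differ in opposite directions. Sequences are from RefSeq (GRCm38.p6), read 5′ to 3′ on the strand of the gene, with matches to the motifs searched in capitals.
Bmp10, chr6:87428744-87428993, plus strand: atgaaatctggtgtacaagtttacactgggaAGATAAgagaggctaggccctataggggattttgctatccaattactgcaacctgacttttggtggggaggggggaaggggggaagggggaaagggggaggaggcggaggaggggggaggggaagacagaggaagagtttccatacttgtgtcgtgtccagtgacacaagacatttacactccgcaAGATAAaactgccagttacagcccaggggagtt
Hey2, chr10:30842784-30843033, minus strand: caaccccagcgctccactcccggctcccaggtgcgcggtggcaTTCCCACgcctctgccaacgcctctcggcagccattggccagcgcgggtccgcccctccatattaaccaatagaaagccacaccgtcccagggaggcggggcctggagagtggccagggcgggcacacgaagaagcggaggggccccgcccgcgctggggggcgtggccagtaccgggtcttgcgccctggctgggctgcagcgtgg
The letters searched on both strands were GTGGGAA for the Notch partner RBPJ, AGATAA for GATA factors, CACGTG for the E-box that HEY factors bind, TGATGNAA for the CEBP-ATF element, TATAAA for the TATA box and AGGTGTGA for T-box factors. The Bmp10 window held the GATA letters at 219 and 33 bases before the start, which 9.99% of 32851 promoter windows hold at least once. The Hey2 window held the RBPJ letters on the reverse strand, starting 207 bases before the start, and 5.42% of all windows hold them. The windows differ in base composition, with a GC content of 52.0% for Bmp10 and 71.6% for Hey2. Of the 10 genes 7 were in the promoter table, where Nrg1, Hey1 and Has2 were not. The Vcan window also held the RBPJ letters and that of Adamts1 the TATA letters, and the other motifs matched in none of the 7 windows. A match of letters is a description of the window and no measure of binding.

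Hey2 (ENSMUSG00000019789), the transcription factor of the compact wall, had an FPKM of 24.0, 24.0 and 28.1 in Ctrl replicates 1, 2 and 3. It had 16.5, 18.9 and 21.04 FPKM in cKO replicates 1, 2 and 3, so that each cKO library lay below each control. Mean levels were 25.4 ± 2.34 (SD, n = 3) in Ctrl and 18.8 ± 2.27 FPKM (SD, n = 3) in cKO hearts, 74.2% of the control level. The log2 fold change was -0.41 (standard error 0.11, 95% interval -0.67 to -0.16), with an unadjusted p of 0.00535 and an adjusted p of 0.170 from limma. Its relative Hey1 (ENSMUSG00000040289), a Notch target expressed in endocardium and atria, overlapped between the groups. Hey1 had 8.66, 9.20 and 9.77 FPKM in Ctrl and 10.7, 10.6 and 8.62 FPKM in cKO replicates 1, 2 and 3, the last of them below every control. Its log2 fold change was 0.10 (95% interval -0.14 to 0.35, adjusted p = 0.694 from limma), an interval that leaves room for a difference in either direction. Without the library labelled cKO replicate 3 Hey1 did not overlap, as was the case for 32.5% of all genes there, and was at 0.20 (unadjusted p = 0.0793, adjusted p = 0.402 from limma). It was at 0.0529 without cKO replicate 1, 0.0580 without cKO replicate 2 and 0.0631 without Ctrl replicate 1.

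Ratios within a library do not depend on its scaling, and those of Bmp10 and of Hey1 to Hey2 were chosen after seeing the values. Bmp10 per Hey2 was 0.831, 0.869 and 0.821 in Ctrl replicates 1, 2 and 3 and 2.46, 2.87 and 1.39 in cKO replicates 1, 2 and 3. Controls lay close together, and every cKO library was above them, with the library labelled cKO replicate 3 nearest. Hey1 per Hey2 was 0.361, 0.383 and 0.348 in Ctrl and 0.650, 0.562 and 0.410 in cKO replicates 1, 2 and 3, again without overlap. The exact permutation test gave p = 0.1 (two-sided) for both, the smallest that 3 libraries against 3 allow. Since Bmp10 was above and Hey2 below every control, the first ratio had to separate the groups, and its p adds nothing to the values of the genes.

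The neuregulin receptors were the next in line. Erbb2 (ENSMUSG00000062312), the coreceptor that has no ligand of its own, had 20.1, 17.5 and 20.1 FPKM in Ctrl replicates 1, 2 and 3 and 13.3, 16.3 and 18.3 FPKM in cKO replicates 1, 2 and 3. Only the library labelled cKO replicate 3 reached into the control range. Without that library Erbb2 was at -0.36 (unadjusted p = 0.0164, adjusted p = 0.207 from limma) and did not overlap, as was the case for 32.5% of all genes there. Without cKO replicate 1 it was at -0.14 (unadjusted p = 0.215 from limma). With all libraries its difference was -0.26 on the log2 scale (standard error 0.12, 95% interval -0.54 to 0.02, adjusted p = 0.361 from limma). The annotation has Mien1 overlapping Erbb2 on the opposite strand. The libraries keep strand, but whether counting used it is not given in the sources used here. Has2, Notch1, Nrg1 and Vcan also overlap genes of the opposite strand, for which the table used here has no row. Mien1 was at 18.8, 19.4 and 23.3 FPKM in Ctrl and 17.5, 15.3 and 18.7 FPKM in cKO replicates 1, 2 and 3, and its part in the Erbb2 values was not tested. Notch1 (ENSMUSG00000026923), the endocardial receptor upstream of neuregulin, had 11.7, 10.7 and 11.9 FPKM in Ctrl and 10.3, 12.1 and 11.3 FPKM in cKO replicates 1, 2 and 3. The cKO values enclosed the control values. The Notch1 log2 fold change was -0.03 (95% interval -0.24 to 0.19, adjusted p = 0.921 from limma), and its sign turned without cKO replicate 1 (0.0306).

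Erbb4 (ENSMUSG00000062209), the receptor that binds neuregulin, had 14.7, 14.1 and 12.5 FPKM in Ctrl replicates 1, 2 and 3 and 10.8, 11.1 and 11.5 FPKM in cKO replicates 1, 2 and 3. The cKO libraries were close together and all below the controls. Mean levels were 13.8 ± 1.19 (SD, n = 3) in Ctrl and 11.1 ± 0.337 FPKM (SD, n = 3) in cKO hearts. This is -0.28 on the log2 scale (standard error 0.09, 95% interval -0.49 to -0.08), with an unadjusted p of 0.0132 and an adjusted p of 0.221 from limma. Without Ctrl replicate 1 the unadjusted p was 0.0539. Erbb4 was summed from 3 transcript rows, and the 2 most abundant rows differ in their coding sequence by 1 cassette exon of 48 bases. This exon makes the CYT-1 form of the receptor, whose tail carries a binding site for PI3 kinase that the CYT-2 form lacks. The exon is shown because it separates the rows on which the sum rests. It lies at chr1:68043908-68043955 on the minus strand (GENCODE M21, GRCm38), here in capitals with 15 bases of the neighbouring exons on either side.
With the exon (CYT-1): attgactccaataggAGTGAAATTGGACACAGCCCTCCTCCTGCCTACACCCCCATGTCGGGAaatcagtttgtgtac
Without the exon (CYT-2): attgactccaataggaatcagtttgtgtac
The row without the exon held most of the gene, at 11.6, 10.6 and 6.84 FPKM in Ctrl and 8.54, 8.35 and 9.29 FPKM in cKO replicates 1, 2 and 3. These values overlap, with Ctrl replicate 3 lowest of all, and the log2 fold change was -0.11 (adjusted p = 0.857 over transcript rows). The row with the exon was at 1.89, 2.42 and 5.25 FPKM in Ctrl and 1.40, 1.85 and 1.35 FPKM in cKO replicates 1, 2 and 3, without overlap. Its log2 fold change was -0.65 (standard error 0.31, adjusted p = 0.527 over transcript rows). Ctrl replicate 3 stood apart in the split, with 42.1% of its Erbb4 FPKM in the row with the exon, where the other 5 libraries had between 11.8% and 17.2%. Neither row passed an unadjusted p of 0.05 alone.

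**Figure D3:**
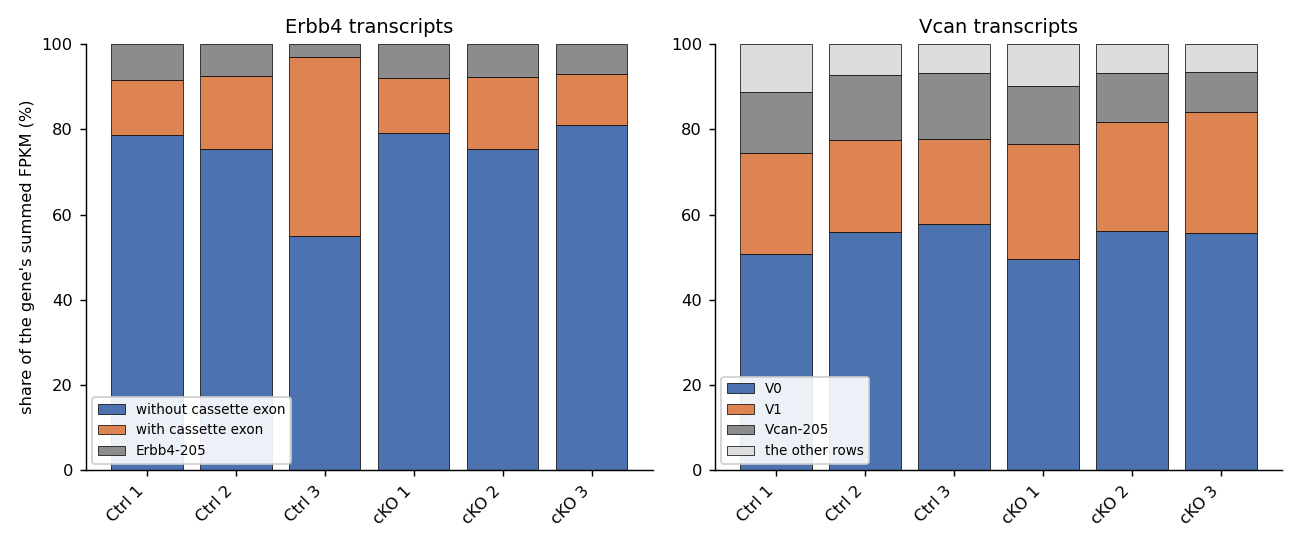
Share of each transcript row in the summed FPKM of Erbb4 and of Vcan, in percent, as stacked bars for the 6 libraries. Ctrl 3 has 42.1% of Erbb4 in the row with the cassette exon, and the V1 row of Vcan takes 26.8%, 25.7% and 28.2% in cKO 1, 2 and 3 against 19.97% to 23.7% in Ctrl.

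The matrix genes overlapped between the groups. Has2 (ENSMUSG00000022367), which encodes the enzyme that makes the hyaluronan of the cardiac jelly, had 7.94, 9.56 and 9.48 FPKM in Ctrl and 8.14, 10.8 and 8.07 FPKM in cKO replicates 1, 2 and 3. The log2 fold change of Has2 was close to 0 (95% interval -0.30 to 0.29, adjusted p = 0.993 from limma), and its sign differed between alternatives. Adamts1 (ENSMUSG00000022893), the protease that cleaves versican, had 23.5, 18.9 and 24.0 FPKM in Ctrl and 20.5, 21.6 and 15.3 FPKM in cKO replicates 1, 2 and 3. The lowest value was that of the library labelled cKO replicate 3, and the other cKO libraries lay within the control range. The Adamts1 log2 fold change was -0.21 (95% interval -0.54 to 0.13, adjusted p = 0.546 from limma), and ran from -0.31 without Ctrl replicate 2 to -0.06 without the library labelled cKO replicate 3 when libraries were left out.

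Vcan (ENSMUSG00000021614), the proteoglycan versican, was the most abundant of the 10 genes per kilobase. It had 180, 191 and 176 FPKM in Ctrl replicates 1, 2 and 3 and 152, 182 and 152 FPKM in cKO replicates 1, 2 and 3. Only cKO replicate 2 reached into the control range, and Vcan differed by -0.17 on the log2 scale (standard error 0.10, 95% interval -0.41 to 0.06, adjusted p = 0.453 from limma). Without cKO replicate 2 the Vcan groups did not overlap, as was the case for 35.7% of all genes there, and the value was -0.26 (unadjusted p = 0.0207 from limma). It was -0.13 without cKO replicate 1 (unadjusted p = 0.289) or without the library labelled cKO replicate 3 (unadjusted p = 0.281), and -0.0585 with the erythroid covariate. Versican is made in forms that differ by 2 large exons for the chains of chondroitin sulfate. V0 holds both, V1 lacks the exon of 2880 coding bases, V2 lacks that of 5217 coding bases and V3 lacks both, and all 4 forms were matched by transcript identifier.

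The V0 row had 91.4, 107 and 102 FPKM in Ctrl and 75.5, 102 and 84.8 FPKM in cKO replicates 1, 2 and 3, with a log2 fold change of -0.20 (adjusted p = 0.618 over transcript rows). The V1 row had 42.8, 41.3 and 35.2 FPKM in Ctrl and 40.7, 47.0 and 42.9 FPKM in cKO replicates 1, 2 and 3, with a log2 fold change of 0.13 (adjusted p = 0.673 over transcript rows). Both rows overlapped between the groups. As a share of the gene V1 did not overlap, at 23.7%, 21.6% and 19.97% in Ctrl and 26.8%, 25.7% and 28.2% in cKO replicates 1, 2 and 3. This pattern was seen after the data and is given with no test, and how many rows of other genes separate on such shares was not counted. The V2 and V3 rows each held under 2% of the gene in every library. Another abundant row, ENSMUST00000159337, with 1104 coding bases and without the large exons, had 25.8, 29.0 and 27.1 FPKM in Ctrl and 20.6, 20.6 and 14.4 FPKM in cKO replicates 1, 2 and 3. Its groups did not overlap (-0.55 on the log2 scale, standard error 0.15, unadjusted p = 0.0102, adjusted p = 0.395 over transcript rows). Over the 17 member rows tested 4 had an unadjusted p under 0.05, where 10.2% of 20370 transcript rows did, and none passed the adjusted threshold, which 0.0344% passed. These were the single rows of Bmp10 and Hey2, 2 rows of Vcan, ENSMUST00000159337 and the shorter ENSMUST00000162715, the last named after its values were seen.

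Since cardiomyocyte markers were lower in cKO hearts, the genes of cardiomyocytes were also expressed per 1000 FPKM of the summed 16 markers. Bmp10 was 1.39, 1.60 and 1.47 in Ctrl and 3.85, 4.69 and 2.32 in cKO replicates 1, 2 and 3 on this scale, a ratio of means of 2.44. It had to separate the groups, since Bmp10 was above and the marker sum below every control, so that its exact permutation p of 0.1 (two-sided) adds nothing. Hey2 was 1.68, 1.84 and 1.79 in Ctrl and 1.57, 1.64 and 1.67 in cKO replicates 1, 2 and 3. The groups of Hey2 still did not overlap, but Ctrl replicate 1 (1.677) and the library labelled cKO replicate 3 (1.672) almost touched. The Hey2 ratio of means was 0.919, closer to 1 than the 0.742 for FPKM as deposited. The receptors overlapped, with a ratio of means of 1.03 for Erbb2 (exact permutation p = 0.7, two-sided) and 0.995 for Erbb4 (exact permutation p = 0.9, two-sided). For Hey2 the exact permutation p was 0.1 (two-sided), the smallest that 3 libraries against 3 allow. The lower level of cardiomyocyte markers stood beside the lower FPKM of Erbb2, Erbb4 and Hey2, and its part in them was not tested. BMP10 is also made in the atria, and per 1000 FPKM of 8 atrial markers, which summed to 3391 to 4058 FPKM in Ctrl and 3440 to 4044 FPKM in cKO libraries, Bmp10 did not overlap either, with a ratio of means of 1.92 (exact permutation p = 0.1, two-sided). That sum holds Nppa, which was higher in cKO hearts at an unadjusted p of 0.0179 from limma, while the other 7 atrial markers were lower, 3 of them at an unadjusted p under 0.05.

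**Figure D4:**
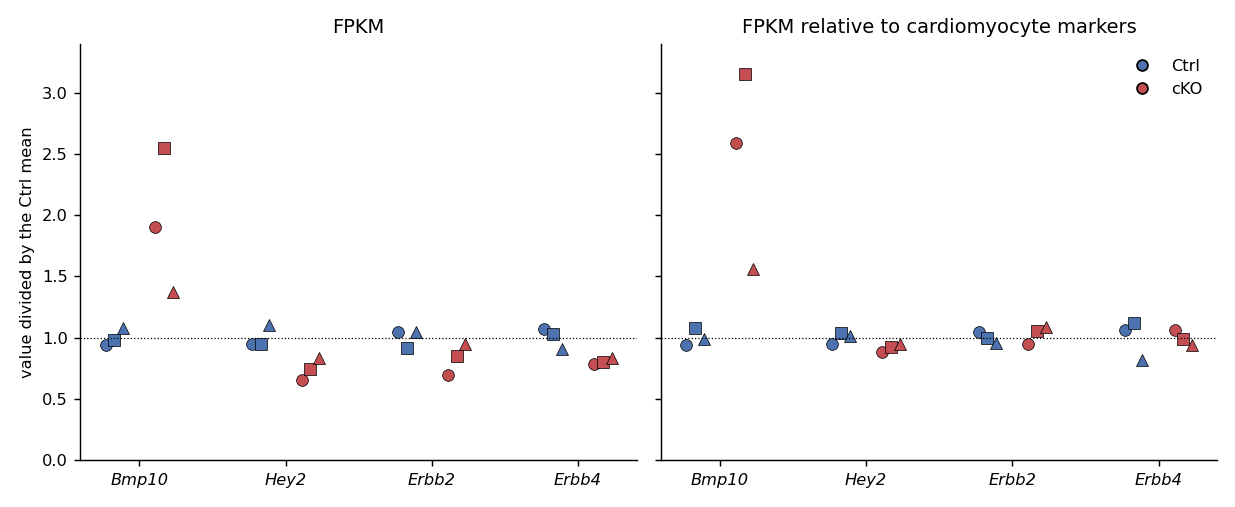
Bmp10, Hey2, Erbb2 and Erbb4 in each library, divided by the Ctrl mean, as FPKM (left) and per summed FPKM of 16 cardiomyocyte markers (right), with symbols for the replicate number. Per cardiomyocyte marker Bmp10 stays above the controls, whereas Erbb2 and Erbb4 overlap with ratios of means of 1.03 and 0.995.

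For the endocardium, the 14 endothelial and endocardial markers summed to 316 to 342 FPKM in Ctrl and 294 to 328 FPKM in cKO libraries, with 3 of the markers higher and 11 lower. At an unadjusted p under 0.05 from limma 1 of them was higher and 3 were lower, and 7 of the 14 did not overlap between the groups, where 15% and 20.8% of all genes did so. The counts at an unadjusted p under 0.05 that follow are to be read beside the same 15%. Per 1000 FPKM of these markers Nrg1 was 22.0, 20.997 and 18.1 in Ctrl and 15.2, 18.2 and 13.5 in cKO replicates 1, 2 and 3, and on this scale Ctrl replicate 3 and cKO replicate 2 overlapped (exact permutation p = 0.2, two-sided). Notch1 was 34.4, 34.0 and 35.8 in Ctrl and 35.0, 36.9 and 38.3 in cKO replicates 1, 2 and 3 (exact permutation p = 0.2, two-sided). Nrg1 per Notch1 was 0.641, 0.618 and 0.505 in Ctrl and 0.434, 0.493 and 0.354 in cKO replicates 1, 2 and 3. That ratio did not overlap (exact permutation p = 0.1, two-sided, the smallest that 3 libraries against 3 allow). Hey1, Has2, Adamts1 and Vcan also overlapped per endothelial marker, with ratios of means of 1.17, 1.07, 0.933 and 0.953. Per 1000 FPKM of cardiomyocyte markers Vcan overlapped too, with a ratio of means of 1.10 (exact permutation p = 0.5, two-sided). Of 9 epicardial markers 2 were higher at an unadjusted p under 0.05, with sums of 170 to 193 FPKM in Ctrl and 177 to 242 FPKM in cKO libraries. Of 6 smooth muscle markers 4 were lower, 2 of them at an unadjusted p under 0.05, and 2 were higher. Their sums were 738 to 851 FPKM in Ctrl and 563 to 772 FPKM in cKO libraries. None of 10 cushion mesenchyme markers (357 to 379 and 318 to 438 FPKM) or of 6 macrophage markers tested had an unadjusted p under 0.05. The macrophage sums, over all 8 genes listed, were 16.9 to 18.2 FPKM in Ctrl and 11.8 to 20.6 FPKM in cKO libraries. Of 13 erythroid markers 12 were higher, 6 of them at an unadjusted p under 0.05. None of 8 liver markers passed it, but their sum ran from 25.2 to 331 FPKM in Ctrl and 98.7 to 197 FPKM in cKO libraries, and the part of these cell types in the results was not tested.

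Of 8 listed markers of trabecular myocardium, which include Bmp10, 6 had an unadjusted p under 0.05 and none an adjusted p under 0.05 from limma, and they split in direction. Over all genes 15% had such an unadjusted p. Nppa, which encodes atrial natriuretic peptide, was 751, 620 and 793 FPKM in Ctrl and 1397, 1463 and 781 FPKM in cKO replicates 1, 2 and 3, so that the library labelled cKO replicate 3 lay within the controls. Nppb, which encodes its B-type relative, was 95.2, 111 and 91.5 FPKM in Ctrl and 337, 384 and 146 FPKM in cKO replicates 1, 2 and 3, without overlap (log2 fold change 1.42, adjusted p = 0.141 from limma). The lower markers are named after their values were seen. The connexin gene Gja5 had a log2 fold change of -1.04 (adjusted p = 0.214 from limma), the transcription cofactor gene Cited1 of -0.97 (adjusted p = 0.214) and the calcium pump regulator gene Sln of -0.63 (adjusted p = 0.165). In the library labelled cKO replicate 3 Cited1 lay within the controls at 77.2 FPKM, against 34.3 and 32.6 FPKM in cKO replicates 1 and 2, and Gja5 was at 25.6 FPKM there against 8.62 and 10.51 FPKM. Of the 4 compact layer markers, with Hey2 among them, 3 were lower and 1 higher, and Hey2 alone had an unadjusted p under 0.05. Tbx20, a T-box factor of the early heart, had a log2 fold change of -0.21 (adjusted p = 0.373).

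The wider pathways around the 10 genes were looked at through 5 lists that leave the 10 genes out. None of their genes had an adjusted p under 0.05, and in each list the share at an unadjusted p under 0.05 was below the 15% of all genes. Of 14 neuregulin and EGF family genes tested none had an unadjusted p under 0.05, 7 were higher and 7 lower, and the median log2 fold change was -0.01. Of 32 Notch genes 3 did, with a median of 0.03. The Notch ligand gene Jag1 was at 13.0, 12.6 and 14.7 FPKM in Ctrl and 10.6, 9.81 and 9.90 FPKM in cKO replicates 1, 2 and 3 (log2 fold change -0.38, adjusted p = 0.154), and the ligand gene Dll1 was lower by a log2 fold change of -0.47 (adjusted p = 0.231). Mib2, encoding a ubiquitin ligase for Notch ligands, was higher, at 5.59, 4.77 and 4.65 FPKM in Ctrl and 12.6, 10.6 and 5.99 FPKM in cKO replicates 1, 2 and 3 (log2 fold change 0.79, adjusted p = 0.186).

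Of 27 BMP genes 1 was higher and 1 lower at an unadjusted p under 0.05, and the median was -0.02. The antagonist gene Nog was higher (log2 fold change 0.58, adjusted p = 0.168) at 1.41 to 1.94 FPKM in Ctrl and 2.42 to 3.72 FPKM in cKO libraries, and the ligand gene Bmp5 was lower (log2 fold change -0.36, adjusted p = 0.301). Of 22 hyaluronan and versican genes none had an unadjusted p under 0.05, with a median of 0.01. Of 29 genes of wall growth 3 were lower at an unadjusted p under 0.05 and the median was -0.02. Angpt1, encoding the ligand of the endothelial receptor TIE2, was at 27.5, 27.6 and 26.2 FPKM in Ctrl and 7.64, 14.6 and 20.9 FPKM in cKO replicates 1, 2 and 3 (log2 fold change -0.97, adjusted p = 0.195). Wnt5a, encoding a WNT ligand, had a log2 fold change of -0.38 (adjusted p = 0.148) and the growth factor gene Fgf9 of -0.26 (adjusted p = 0.301), each without overlap.

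**Figure D5:**
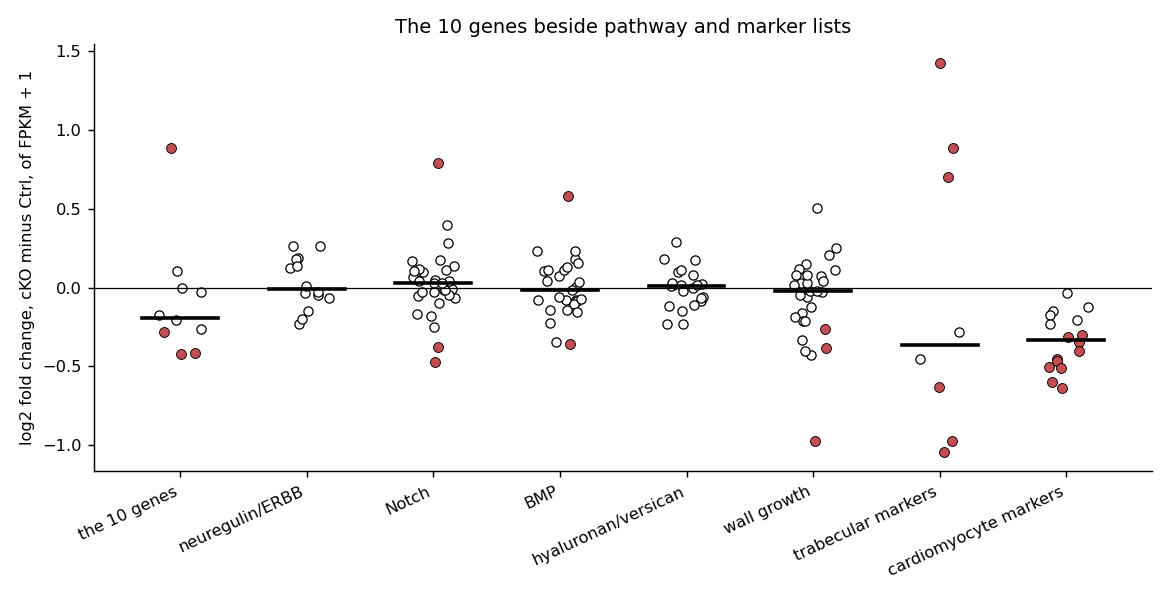
Log2 fold change (log2(FPKM + 1) scale, cKO minus Ctrl) of the 10 genes and of the tested genes of 5 pathway lists and 2 marker lists. Red points have an unadjusted p under 0.05 from limma, black bars are medians, and the 5 pathway lists centre near 0 while the 10 genes have a median of -0.19 and trabecular markers spread to both sides.

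By level per kilobase in Ctrl hearts the order was Vcan, Hey2, Adamts1, Bmp10, Erbb2, Erbb4, Notch1, Hey1, Has2 and Nrg1, with means from 183 down to 6.72 FPKM. The Ctrl values of Hey2 and Adamts1, of Adamts1 and Bmp10, of Bmp10 and Erbb2 and of Hey1 and Has2 overlapped, so that these neighbours did not differ beyond the spread of the libraries. The other neighbours, Erbb2 and Erbb4 or Has2 and Nrg1 among them, did not overlap. In cKO hearts Bmp10 stood second after Vcan. Over the 6 libraries the genes whose log2 values ran most like Bmp10 were Socs2, Bcat1 and Hs6st1 (Pearson r 0.997, 0.997 and 0.996). Bcat1, which encodes a branched-chain amino acid transaminase, was at 6.16, 7.74 and 8.32 FPKM in Ctrl and 19.4, 28.7 and 11.6 FPKM in cKO replicates 1, 2 and 3. For Hey2 they were Mdh1, Trib2 and Myoz1 (r 0.998, 0.996 and 0.995), and for Erbb4 Gm42583, Kcnj11 and Rabgap1l (r 0.989, 0.989 and 0.988). With 6 points that share the split by genotype, such values describe these libraries and carry no p.

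Within the cKO group the values of Hey2, Erbb2 and Erbb4 were lowest in replicate 1 and highest in the library labelled replicate 3, the order in which Mrps5 stood at 5.28, 7.41 and 10.4 FPKM. Bmp10 had its lowest cKO value in the library with the highest Mrps5, but its highest in replicate 2. Hey1 ran in the reverse order, and Nrg1, Adamts1, Has2, Notch1 and Vcan followed neither order, with the first 3 of these lowest in the library labelled replicate 3. With 3 libraries this order is a description and was not tested.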

How the data were processed

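Ribosome-depleted, strand-specific libraries of whole hearts at embryonic day 12 were sequenced by the authors, 3 Ctrl and 3 cKO. The authors deposited 1 table of FPKM per transcript. The submitters' processing notes name HISAT2, Bowtie2 2.2.8, StringTie 1.3.1, Cuffdiff 2.1.1 and the build mm9, with no role for each. Coordinates given here are from the reference (GRCm38), not from the table. FPKM keep no read counts, so the depth is known only roughly and no count test was used. Low genes are estimated with fewer reads and are less certain. Groups came from the sample titles, and the labels call the libraries biological replicates without naming litters, so that p-values measure the spread between these pools.

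Transcript FPKM were summed per gene identifier. The 13262 genes that reached 1 FPKM in 3 or more of the 6 libraries were compared as log2(FPKM + 1) with limma 3.58.1 (eBayes with trend) in R 4.3.3, adjusted by Benjamini-Hochberg over all of them. Adding 1 makes differences of genes with low values look smaller. The fit was tested on simulated data. Ratios used an exact permutation test. By rule the text names the 10 genes and their transcripts with at least 10% of the summed FPKM. From each pathway list it names any gene with an adjusted p under 0.05 and up to 4 with the smallest unadjusted p under 0.05. Of the marker lists, the 2 most abundant genes are named for trabecular and compact myocardium only. For the 3 of the 10 genes with the smallest p, the 3 genes with the highest Pearson r are named. Myh6 and the lower trabecular markers, among others, are named outside the rule. The genes and lists were chosen with earlier results of these data known. Alternatives changed the pseudocount, filter, scaling, block, trend, transcript choice and libraries. The cassette exon and transcript lengths are from GENCODE M21, promoters from RefSeq.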

Additional observations from a re-analysis of the deposited data

How the results depend on the processing

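Over 15 alternative settings, 1 of them chosen after seeing the data (the erythroid marker level as a covariate), 8 of the 10 genes kept their sign, and Has2 and Notch1, both near 0, did not. Has2 was 0.0163 with median-of-ratios size factors, 0.0191 with FPKM rescaled to a constant sum without erythroid genes, 0.16 with the erythroid covariate, and -0.13 to 0.0605 when each library was left out in turn. Notch1 was 0.0565 with the erythroid covariate and -0.0778 to 0.0306 when libraries were left out. The log2 fold change of Bmp10 ran from 0.67 (without cKO replicate 2) to 1.17 (erythroid covariate) and that of Hey2 from -0.49 to -0.33, each with an unadjusted p under 0.05 in all 15 settings. Of the 10 genes the number at an unadjusted p under 0.05, 4 as reported, was 2 for the most abundant transcript alone, where Erbb4 (-0.11) and Nrg1 (-0.01) lost it, and 2 to 5 when libraries were left out, the lowest without Ctrl replicate 1. The number with groups that did not overlap, 4 as reported, was 2 for the most abundant transcript, 3 with FPKM rescaled without erythroid genes, where Nrg1 overlapped, and 4 to 6 when libraries were left out. Over all genes the share that did not overlap was 20.8% as reported, 19.4% and 20.98% in the first 2 of these settings and 27.0% to 35.7% when libraries were left out. The number with an adjusted p under 0.05 was 0 to 1 when libraries were left out, the 1 being Bmp10 without the library labelled cKO replicate 3.

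Over all genes tested 11 had an adjusted p under 0.05. This was 5 with no filter, 6 without trend, 4 for the most abundant transcript and 5 to 269 when libraries were left out, with 119 without cKO replicate 2 and 269 without the library labelled cKO replicate 3. The study reports many more dysregulated genes in embryonic mutant hearts by its own test, which was not repeated here. Unadjusted, 1991 genes had a p under 0.05, of them 37.2% higher, against 1314 for a mean FPKM of at least 5, where 9041 rather than 13262 genes were tested, and 1216 to 2166 when libraries were left out, the lowest without Ctrl replicate 1. With FPKM rescaled without erythroid genes the share higher was 47.6%. Libraries with the same replicate number are different pools. Their deviations correlated at 0.215, 0.108 and 0.0892, and each library correlated best with the one of its own number, a hint from the data only. With the replicate block 4 genes had an adjusted p under 0.05, and the adjusted p was 0.145 for Bmp10 and 0.125 for Hey2, so that it changed the call of none of the 10 genes. The causes of the other changes were not tested. Precision is limited by 3 libraries a group and by FPKM that hold no read counts.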
